A study of Mus musculus with 6 samples.

Results

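Metallothioneins are small cysteine-rich proteins that bind zinc and copper. The genes described here are Mt1, Mt2 and Mt3, Mtf1, which encodes the zinc-sensing transcription factor MTF1, and Slc30a1, which encodes the zinc exporter ZnT1 of the plasma membrane. These 5 genes, each matched by its Ensembl identifier, are 5 of the 39179 genes counted, and all 5 passed the filter on low counts that left 13775 genes for testing. The set was chosen by symbol but selected on results of the same comparison, in particular the higher Mt3 counts with G392E-NS. The values are therefore given as a description without p-values, and calls of these genes are no independent test.

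The counts come from neural progenitor cells (dividing precursors of neurons and glia) of CD1 mouse cerebral cortex taken at embryonic day 13.5 and then differentiated in culture. In 3 libraries the cells stably expressed green fluorescent protein (GFP), and in the other 3 they stably carried neuroserpin with the G392E change (G392E-NS). This variant forms polymers in the endoplasmic reticulum and causes the dementia FENIB. The study asked whether its polymers are accompanied by oxidative stress. Cells with wild-type neuroserpin were not analysed here, and the labels used here name neither the promoter that drives either transgene nor the number of clones or cultures. The replicates of a group may therefore come from a single clone or culture, although they differed by more than sampling noise (chi-square per degree of freedom 8.02 to 56.4). The p-values given for other genes measure only the spread between these libraries.

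Libraries held 15507487 to 24835835 counts. Serpini1, the mouse neuroserpin gene, stood at 4.2 to 5.17 CPM (counts relative to the library total, scaled by TMM factors) in the GFP group and at 4.96 to 6.74 with G392E-NS, and the labels do not give the species of the introduced gene, so these values do not check the construct. The RNA Xist, made in female cells, stood at 1.41 to 1.56 CPM with GFP and at 1156 to 1846 with G392E-NS, so the sex of the cells and the transgene cannot be told apart here. Of 10 neuronal markers 8 were high enough to be tested, among them Map2 at 2340 to 3087 CPM, while Stmn2, with 0 to 6 counts a library, and Nefl were not. All 8 progenitor markers were tested, with Nes at 210 to 516 CPM. Summed markers of microglia reached at most 0.351 CPM, with Csf1r and C1qa at 0 in every library.

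In most tissues Mt1 and Mt2 are inducible. Zinc that enters the cell binds MTF1, which moves to metal response elements (MREs) in the promoters of Mt1, Mt2 and Slc30a1, and the products then bind or export zinc. Glucocorticoids, cytokines acting through STAT3, hypoxia and oxidants also raise Mt1 and Mt2. Mt3 is the brain isoform, also called growth inhibitory factor. It is known for responding weakly to metals, and in brain it is found in astrocytes and in neurons that hold zinc in synaptic vesicles. The protein of Mt4, the remaining metallothionein gene, belongs to stratified epithelia.

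The metallothionein genes lie side by side on mouse chromosome 8 (GRCm38), in the order Mt4, Mt3, Mt2, Mt1, all on the plus strand, within 43.1 kb (94137197 to 94180327). Mt3 (ENSMUSG00000031760) spans 94152607 to 94154146, Mt2 (ENSMUSG00000031762) 94172664 to 94173568 and Mt1 (ENSMUSG00000031765) 94179082 to 94180327. Mtf1 (ENSMUSG00000028890) is on chromosome 4, 124802104 to 124849800, and Slc30a1 (ENSMUSG00000037434) on chromosome 1, 191906767 to 191913247. None of the 3 metallothionein genes described overlaps another counted gene. Slc30a1 overlaps 1700034H15Rik on the opposite strand, and Mtf1 overlaps 1110065P20Rik on the opposite strand and n-R5s192 on its own, so their counts may hold reads of these genes.

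The bases before the annotated starts are shown because 3 of these genes sit in 1 cluster and had like profiles over the libraries, and because Slc30a1 is another known target of MTF1. They are from RefSeq promoter windows (GRCm38.p6, plus strand) and end before the first annotated transcript base: chr8:94178839-94179081 for Mt1, chr8:94172368-94172617 for Mt2, chr8:94152357-94152606 for Mt3 and chr1:191906531-191906766 for Slc30a1. Capitals mark the MRE core, written as TGCACNC or TGCGCNC and searched on both strands, and no 2 matches overlap.
Mt1: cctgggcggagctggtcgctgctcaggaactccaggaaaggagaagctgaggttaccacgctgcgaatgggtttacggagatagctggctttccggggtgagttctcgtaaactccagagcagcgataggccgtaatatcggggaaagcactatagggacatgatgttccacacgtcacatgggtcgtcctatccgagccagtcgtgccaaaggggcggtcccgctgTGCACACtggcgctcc
Mt2: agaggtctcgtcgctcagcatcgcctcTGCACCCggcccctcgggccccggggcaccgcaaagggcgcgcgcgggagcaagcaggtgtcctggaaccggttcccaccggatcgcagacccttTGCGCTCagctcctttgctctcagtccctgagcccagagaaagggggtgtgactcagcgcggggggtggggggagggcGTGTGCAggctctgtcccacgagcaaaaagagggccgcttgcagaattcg
Mt3: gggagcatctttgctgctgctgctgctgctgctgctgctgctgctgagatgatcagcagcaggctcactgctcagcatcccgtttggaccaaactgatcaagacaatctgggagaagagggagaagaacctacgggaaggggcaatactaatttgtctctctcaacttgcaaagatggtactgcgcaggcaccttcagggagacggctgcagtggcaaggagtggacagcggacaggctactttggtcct
Slc30a1: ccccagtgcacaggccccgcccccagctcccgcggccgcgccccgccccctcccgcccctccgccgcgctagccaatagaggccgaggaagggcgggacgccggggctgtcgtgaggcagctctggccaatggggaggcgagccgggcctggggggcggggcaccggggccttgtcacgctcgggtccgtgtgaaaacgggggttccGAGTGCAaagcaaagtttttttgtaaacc
Mt2 held 3 matches, which start 223, 128 and 50 bases before its RefSeq start. Mt1 held 1 match, 23 bases before its start, and Slc30a1 held 1, 43 bases before its start. The Mt3 window held none. Mtf1 is left out because its RefSeq window lies inside an annotated transcript. Among 32851 windows of 250 bases, 21.4% held at least 1 such match and 1.26% at least 3. The antioxidant response element bound by NRF2, written as TGACNNNGC, had 1 match each in the Mt2 and Slc30a1 windows, none in those of Mt1 and Mt3, and at least 1 in 10.2% of all windows. A match is a run of letters only. Bases outside these windows, including those after the annotated starts, were not searched. The number of matches therefore need not be the number of MREs that a gene has, and does not rank the genes by it.

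Mt3 had 88.3, 58.8 and 134 CPM in GFP replicates 1 to 3 and 192, 494 and 323 CPM in G392E-NS replicates 1 to 3. Every G392E-NS library lay above every GFP library. The means were 93.8 ± 38 CPM with GFP and 337 ± 152 with G392E-NS (SD, n = 3 each), a 3.59-fold difference, or 1.84 on the log2 scale (SE 0.38).

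Mt1 had 160, 96.6 and 287 CPM in the GFP libraries and 280, 859 and 512 CPM in the G392E-NS libraries, in the same order of replicates. The groups overlapped at a single point, GFP replicate 3 standing just above G392E-NS replicate 1. The means were 181 ± 96.8 and 550 ± 292 CPM (SD, n = 3 each), a log2 fold change of 1.60 (SE 0.47) or 3.03-fold.

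Mt2 had 138, 74.1 and 221 CPM in the GFP libraries and 185, 442 and 324 CPM in the G392E-NS libraries. Here too GFP replicate 3 lay above G392E-NS replicate 1. The means were 144 ± 73.7 and 317 ± 129 CPM (SD, n = 3 each), a log2 fold change of 1.13 (SE 0.41) or 2.2-fold, the smallest of the 3 metallothionein genes.

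Mt4 had 0 counts in all 6 libraries, which allows up to 0.0242 CPM over the 123925863 counts of the series.

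Mtf1, the zinc sensor, measured 45.3, 43.5 and 43.8 CPM with GFP and 42, 50 and 47.1 with G392E-NS. The groups overlapped, and the 6 values lay within a narrow range. Its log2 fold change was 0.07 (SE 0.10).

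Slc30a1, the zinc exporter, measured 54.7, 45.5 and 58.2 CPM with GFP and 54.7, 71.1 and 38.5 with G392E-NS. Both its highest and its lowest value were in G392E-NS libraries, and the groups overlapped. Its log2 fold change was 0.06 (SE 0.21), and it was negative when G392E-NS replicate 2 (−0.17) or GFP replicate 2 (−0.04) was left out.

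**Figure D1:**
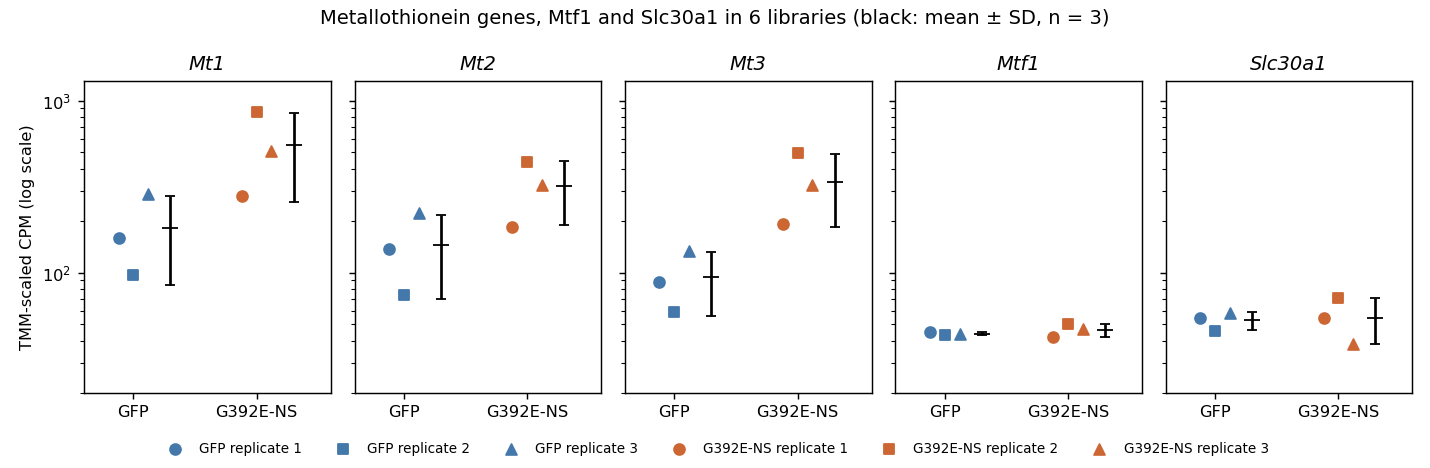
TMM-scaled CPM of Mt1, Mt2, Mt3, Mtf1 and Slc30a1 on a log axis, with 1 point per library and the mean ± SD of each group in black (n = 3). Mt3 is the gene whose groups do not overlap, from 58.8 to 134 CPM with GFP and from 192 to 494 with G392E-NS, while Mtf1 and Slc30a1 stay between 38.5 and 71.1 CPM.

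By edgeR's quasi-likelihood test over all 13775 genes, 1 of the 5 genes, Mt3, was among the calls at an adjusted p under 0.05, beside 6.15% of all genes tested (4.79% higher and 1.36% lower). It was also the 1 of 5 whose groups did not overlap, beside 28.6% of all genes (15.7% with G392E-NS higher and 12.9% lower). Both counts come from the comparison in which these genes were chosen. The Mt3 call was absent without GFP replicate 1, GFP replicate 2, G392E-NS replicate 2 or G392E-NS replicate 3, whereas its log2 fold change then ranged from 1.46 to 1.87. Without G392E-NS replicate 1, Mt1 was called as well.

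The metallothionein genes varied more between replicates than most genes did. In GFP libraries Mt1 differed 2.97-fold, Mt2 2.98-fold and Mt3 2.28-fold between the highest and the lowest replicate, and in G392E-NS libraries 3.07-fold, 2.39-fold and 2.57-fold. Replicate 3 was the highest and replicate 2 the lowest GFP library for all 3 genes. Replicate 2 was the highest and replicate 1 the lowest G392E-NS library for all 3. The SD of log2 CPM in GFP was 0.79 for Mt1, 0.79 for Mt2 and 0.60 for Mt3, and the median over 9350 genes with a mean of at least 10 CPM was 0.09. At least 99% of those genes had a smaller SD in GFP than each of these 3. In G392E-NS libraries the SDs of Mt1, Mt2 and Mt3 were 0.81, 0.64 and 0.68, against a median of 0.17, with at least 98.2% of genes below them. Slc30a1 was variable too, with SDs of 0.18 in GFP and 0.44 in G392E-NS libraries, above those of 83% and 93.9% of genes. Mtf1 had SDs of 0.03 and 0.13, above those of 9.03% and 34.7% of genes.

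Without GFP replicate 3 and G392E-NS replicate 2, the highest library of each group for these genes and an alternative chosen after seeing the data, Mt1, Mt2 and Mt3 had log2 fold changes of 1.63 (SE 0.35), 1.27 (SE 0.36) and 1.81 (SE 0.30). These lie within 1 SE of the values over all 6 libraries. Mtf1 had 0.01 and Slc30a1 −0.10 in the same 4 libraries.

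Ratios within a library do not depend on how libraries are scaled. For every 100 counts of Mt2 there were 64.2, 79.3 and 60.8 counts of Mt3 in the GFP libraries and 104, 112 and 99.8 in the G392E-NS libraries. The groups did not overlap, and the mean log2 ratio of Mt3 to Mt2 went from −0.56 ± 0.20 to 0.07 ± 0.08 (SD, n = 3 each), a difference of 0.64 or 1.55-fold. For every 100 counts of Mt1 there were 55.1, 60.9 and 46.8 counts of Mt3 in GFP and 68.7, 57.6 and 63.1 in G392E-NS libraries. Here the groups overlapped, since GFP replicate 2 lay above G392E-NS replicate 2, and the mean log2 ratio differed by 0.22.

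The 2 inducible genes also differed from each other. For every 100 counts of Mt2 there were 117, 130 and 130 counts of Mt1 in GFP and 151, 194 and 158 in G392E-NS libraries, with no overlap and a mean log2 difference of 0.41. Both Mt1 and Mt3 were thus higher relative to Mt2 in every G392E-NS library than in any GFP library, whereas Mt3 relative to Mt1 was not. These ratios come from the comparison in which the genes were chosen. How often ratios of other genes lack overlap was not counted, and 28.6% of single genes tested lacked it. With any 1 library left out, the difference in the Mt3 to Mt2 ratio ranged from 0.56 to 0.75 and that in the Mt3 to Mt1 ratio from 0.12 to 0.31 on the log2 scale.

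**Figure D2:**
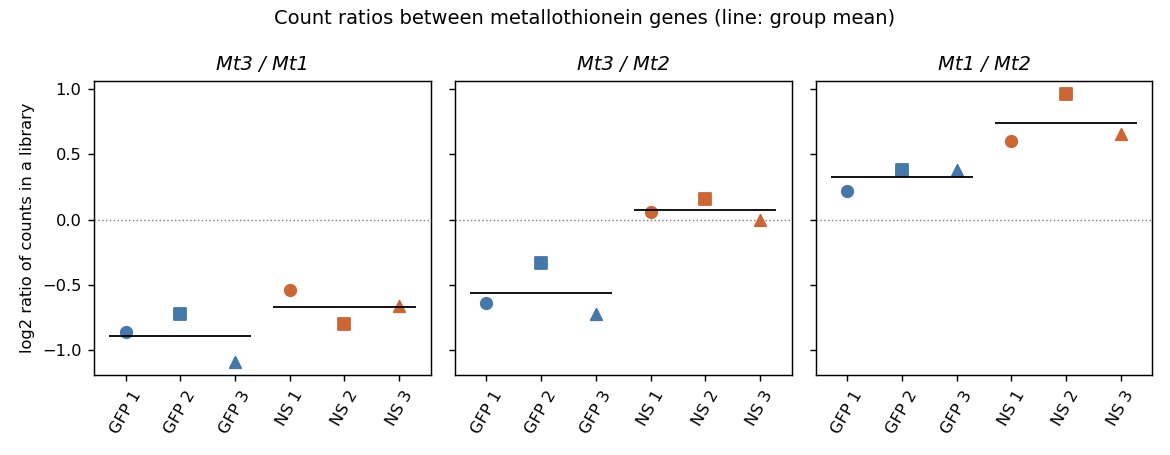
Log2 ratio of the counts of Mt3 to Mt1, Mt3 to Mt2 and Mt1 to Mt2 in each library, with the group mean as a line and a dotted line at equal counts (NS stands for G392E-NS). The ratios of Mt3 to Mt2 and of Mt1 to Mt2 do not overlap between the groups, while that of Mt3 to Mt1 does.

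Levels of different genes were compared as RPKM, CPM per kilobase of merged exons. In GFP libraries the order was Mt2 (245 ± 125 RPKM), Mt1 (145 ± 77.7), Mt3 (88 ± 35.7), Slc30a1 (10.1 ± 1.25) and Mtf1 (4.96 ± 0.105), as mean ± SD over 3 libraries. Neighbours among the metallothionein genes overlapped in their ranges over libraries, but by this length the order Mt2, Mt1, Mt3 was the same within each of the 6 libraries. In G392E-NS libraries the means were 539 ± 219 RPKM for Mt2, 442 ± 234 for Mt1, 316 ± 142 for Mt3, 10.4 ± 3.11 for Slc30a1 and 5.21 ± 0.458 for Mtf1. Mt3 made up 18.6, 21.3 and 17.2% of the summed RPKM of the 3 metallothionein genes in GFP and 25.1, 24.4 and 24% in G392E-NS libraries, 2 ranges that do not overlap.

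The order of Mt1, Mt2 and Mt3 rests on the length used. Merged exons of Mt1 measure 1246 bases because the annotated transcripts together cover the whole gene, introns included, whereas the principal transcripts by APPRIS measure 549 bases for Mt1, 511 for Mt2 and 536 for Mt3. Per kilobase of these, an alternative chosen after seeing the data, Mt1 came first in both groups (330 ± 176 and 1002 ± 531 RPKM). Mt2 (282 ± 144 RPKM) then stood above Mt3 (175 ± 71) in GFP, and the pair had 620 ± 252 and 628 ± 283 in G392E-NS libraries. Mt3 made up 22.7, 25.5 and 20.8% of the sum in GFP and 29.2, 27.5 and 27.8% in G392E-NS libraries by this length, again without overlap. Per kilobase of the longest transcript, the mean of Mt3 stood above that of Mt1 in both groups. These means were 175 ± 71 and 167 ± 89.2 RPKM with GFP, and 628 ± 283 and 507 ± 269 with G392E-NS. Mt2 had 282 ± 144 RPKM with GFP and 620 ± 252 with G392E-NS by the longest transcript. Few stretches of the principal transcripts could be confused with another gene: of their 25-base stretches, 0.571% of those of Mt1, 2.67% of Mt2 and 0.586% of Mt3 also occur in transcripts of another gene. The shared stretches were between Mt1 and Mt3, and between Mt2 and Pip5k1a.

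Genes whose profile over the 6 libraries was most like that of Mt3 were found by the root-mean-square distance of mean-centred log2 CPM, among 9349 other genes of at least 10 CPM. The nearest were Cst3 (distance 0.12), which encodes the protease inhibitor cystatin C, Aldoc (0.15), the brain form of aldolase and a marker of astrocytes, Ndrg2 (0.16), Csrp1 (0.16), a LIM domain protein gene reported as an MTF1 target, and Mt1 (0.17). Mt2 ranked at place 32 (0.34). Cst3 measured 464, 306 and 753 CPM with GFP and 999, 2746 and 1408 with G392E-NS, in the same order of libraries within each group as Mt3. Nearest to Mt1 were Tspan15 (0.12), Cst3 (0.15), Mt3 (0.17), the connexin 43 gene Gja1 (0.19) and Mt2 (0.24). Nearest to Mt2 were the matrix protein gene Sparc (0.15), Igsf11 (0.19), Kcnt1 (0.19), Glns-ps1 (0.20), a pseudogene whose reads may come from glutamine synthetase, and the integrin gene Itga7 (0.21). These distances are a description over 6 libraries that also share their group.

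**Figure D3:**
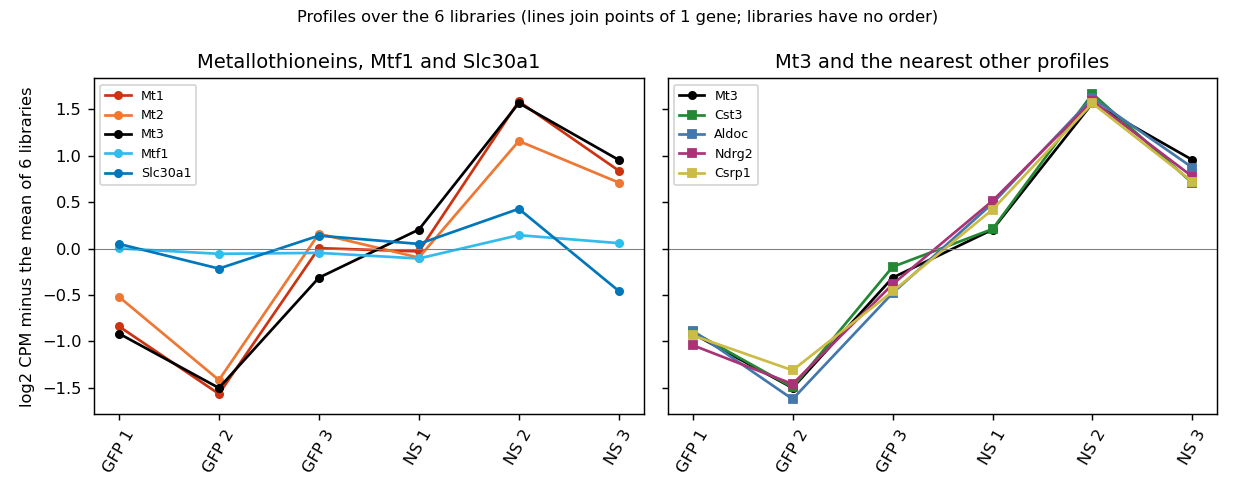
Log2 CPM of each gene minus its mean over the 6 libraries, for the metallothionein genes, Mtf1 and Slc30a1 (left) and for Mt3 with Cst3, Aldoc, Ndrg2 and Csrp1 (right). Lines join the points of 1 gene, and the libraries have no order. Mt1, Mt2 and Mt3 are lowest in GFP replicate 2 and highest in G392E-NS replicate 2, while Slc30a1 runs from −0.46 to 0.43 and Mtf1 from −0.11 to 0.15.

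Most astrocyte markers were higher with G392E-NS, as were the metallothionein genes. Of 12 markers tested, 6 were higher by edgeR's quasi-likelihood test and none lower (background 4.79% higher), and 11 had a fold change above 0, with a median of 1.22 on the log2 scale against 0 over all genes. Among them the connexin 30 gene Gjb6 rose by 3.68 (SE 0.47, adjusted p = 0.00485), Aldoc by 1.99 (SE 0.36, adjusted p = 0.0185) and the growth factor receptor gene Fgfr3 by 1.56 (SE 0.15, adjusted p = 0.00139). Aldoc lost its call without GFP replicate 1 or GFP replicate 2 (adjusted p = 0.0886 and 0.055). The water channel gene Aqp4, which marks mature astrocyte endfeet, had −0.14 (SE 0.38, adjusted p = 0.861).

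The 12 astrocyte markers summed to 5733, 4039 and 5619 CPM in GFP replicates 1 to 3. In G392E-NS replicates 1 to 3 they summed to 9344, 14688 and 9653 CPM. The sum was highest in G392E-NS replicate 2 and lowest in GFP replicate 2, as for the metallothioneins. Within GFP it was highest in replicate 1, whereas Mt1, Mt2 and Mt3 were highest in replicate 3. For every 1000 counts of these markers there were 15.4, 14.5 and 23.9 counts of Mt3 in GFP and 20.6, 33.7 and 33.5 in G392E-NS libraries, so the groups overlapped on this scale. Mt2 had 24, 18.4 and 39.3 counts in GFP and 19.8, 30.1 and 33.6 in G392E-NS libraries per 1000 marker counts, with its highest value in a GFP library. Mt1 had 28, 23.9 and 51 counts in GFP and 29.9, 58.5 and 53.1 in G392E-NS libraries. These values rest mostly on the most abundant of the 12 markers, since the sum weights each marker by its level. In bulk RNA, more cells of a type and more RNA per cell cannot be told apart, and the part of the astrocyte markers in the metallothionein values was not tested.

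Cell cycle markers stood out in the GFP library with the most metallothionein. Their 6 genes summed to 33.7, 52.1 and 1.8 CPM with GFP and to 8.52, 6.7 and 16.5 with G392E-NS. Across the GFP libraries the order was the reverse of that of Mt1, Mt2 and Mt3. In the G392E-NS libraries the highest metallothionein level went with the lowest cell cycle sum, but the full order was not reversed. There the least metallothionein was in replicate 1, and the highest cell cycle sum in replicate 3. None of the 5 cell cycle genes tested passed by edgeR, DESeq2 or limma-voom, or at an unadjusted p under 0.05 by edgeR, and the nearest was Mki67 (−1.92 on the log2 scale with an SE of 0.94, adjusted p = 0.277), which passed without GFP replicate 3 (−2.49, adjusted p = 0.0459). The part of dividing cells in the metallothionein values was not tested.

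Other cell type markers moved in smaller numbers by edgeR (background 4.79% higher and 1.36% lower). Of 8 oligodendrocyte lineage genes 2 rose, the growth factor receptor gene Pdgfra by 1.12 (SE 0.26, adjusted p = 0.0435) and the myelin gene Mog by 2.25 (SE 0.46, adjusted p = 0.0295), the latter at 1.02 ± 0.41 CPM with G392E-NS (SD, n = 3). Of 8 progenitor genes Prom1 rose by 2.52 (SE 0.29, adjusted p = 0.00303) and Nes fell by 0.77 (SE 0.18, adjusted p = 0.048). None of 8 neuronal genes passed (3 at an unadjusted p under 0.05 and 1 by DESeq2), the nearest being the synaptic vesicle gene Syt1 (0.88, SE 0.23, adjusted p = 0.064). Pdgfra and Mog each lost the call without any 1 GFP library or G392E-NS replicate 2 (adjusted p = 0.0512 to 0.172 and 0.0795 to 0.117), Nes lost it without any 1 library other than G392E-NS replicate 1 (0.0657 to 0.17), and Syt1 passed without GFP replicate 3 (0.0233). Endothelial and fibroblast markers summed to at most 1.23 and 3.48 CPM, with Cdh5, Cldn5, Dcn and Lum at 0 in every library. The part of these cells in the metallothionein values was not tested.

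**Figure D4:**
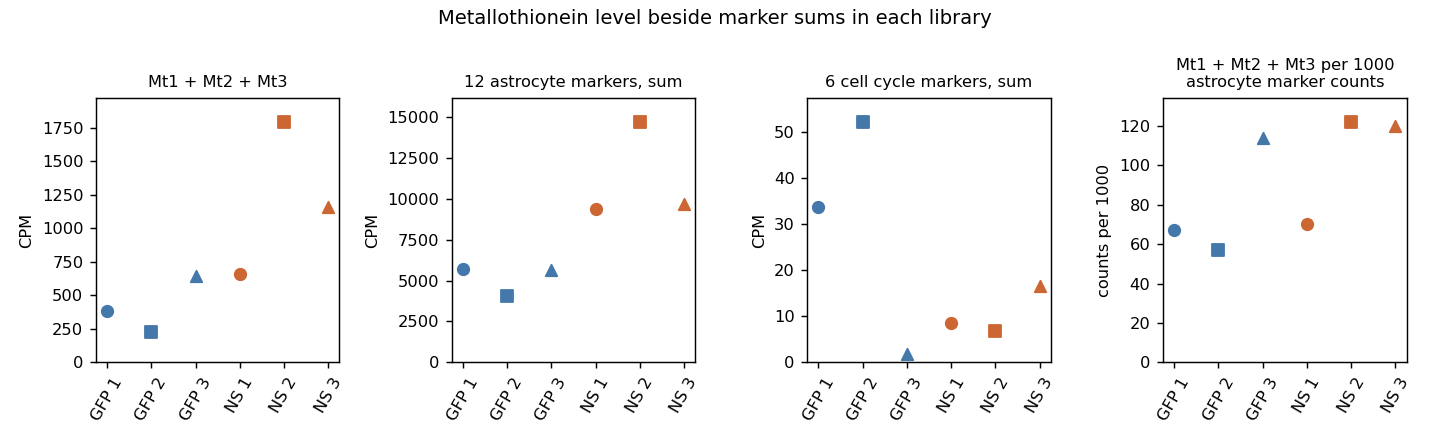
Summed CPM of Mt1, Mt2 and Mt3, of 12 astrocyte markers and of 6 cell cycle markers in each library, and metallothionein counts per 1000 astrocyte marker counts (NS stands for G392E-NS). The metallothionein sum runs from 229 to 642 CPM with GFP and from 657 to 1795 with G392E-NS, while the counts per 1000 astrocyte marker counts overlap between the groups (56.8 to 114 and 70.3 to 122).

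Other genes of zinc transport were counted in the same fit. Of 14 importers of the ZIP family, which bring zinc into the cytosol, 11 were tested and 1 rose (edgeR, background 4.79% higher), with a median log2 fold change of 0.05. It was Slc39a11, from 13.3 ± 1.01 to 20 ± 2.55 CPM (SD, n = 3 each), a log2 difference of 0.58 (SE 0.14, adjusted p = 0.0462), and it lost this call without any 1 library other than G392E-NS replicate 1 (adjusted p = 0.0821 to 0.192). Slc39a11 overlaps Cog1, Sstr2 and Gm16487 on the opposite strand, so its count may hold their reads. Slc39a12, a zinc importer of brain that was picked after its values were seen, averaged 39.8 ± 17.4 CPM with GFP and 85.2 ± 43.8 with G392E-NS, 1.10 higher on the log2 scale (SE 0.39), which did not pass the test (adjusted p = 0.15).

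Of 9 ZnT exporters besides Slc30a1, which carry zinc out of the cytosol, 6 were tested and none passed by edgeR (1 at an unadjusted p under 0.05, 1 by DESeq2 and none by limma-voom). The nearest was Slc30a10, also known as a manganese exporter, with 0.93 on the log2 scale (SE 0.33) and an adjusted p = 0.141, and its count may hold reads of the overlapping gene Gm2061. Slc30a3, which fills the synaptic vesicles that hold zinc in neurons, was too low to be tested. The median over the tested ZnT genes was 0.11, and 0.02 without G392E-NS replicate 2.

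Of 6 other genes reported as targets of MTF1, 5 were tested and 1 rose (edgeR, background 4.79% higher). It was Csrp1, from 16.5 ± 4.92 to 59.5 ± 25.9 CPM (SD, n = 3 each), a log2 difference of 1.85 (SE 0.32, adjusted p = 0.0168). Csrp1 lost its call without GFP replicate 1 or GFP replicate 2 (adjusted p = 0.0842 and 0.0602). The list had a median of 0.46, and 2 of its genes, Slc39a10 and Slc30a10, are also on the transporter lists. It was not split by whether MTF1 raises or lowers a gene.

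Of 12 copper handling genes 11 were tested, with a median of −0.05 (0.03 without G392E-NS replicate 2), and 1 rose (edgeR, background 4.79% higher). It was Atp7b, a copper-exporting ATPase gene, with a log2 difference of 1.14 (SE 0.27, adjusted p = 0.0484), a call lost without any 1 library other than G392E-NS replicate 1 (adjusted p = 0.106 to 0.159).

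**Figure D5:**
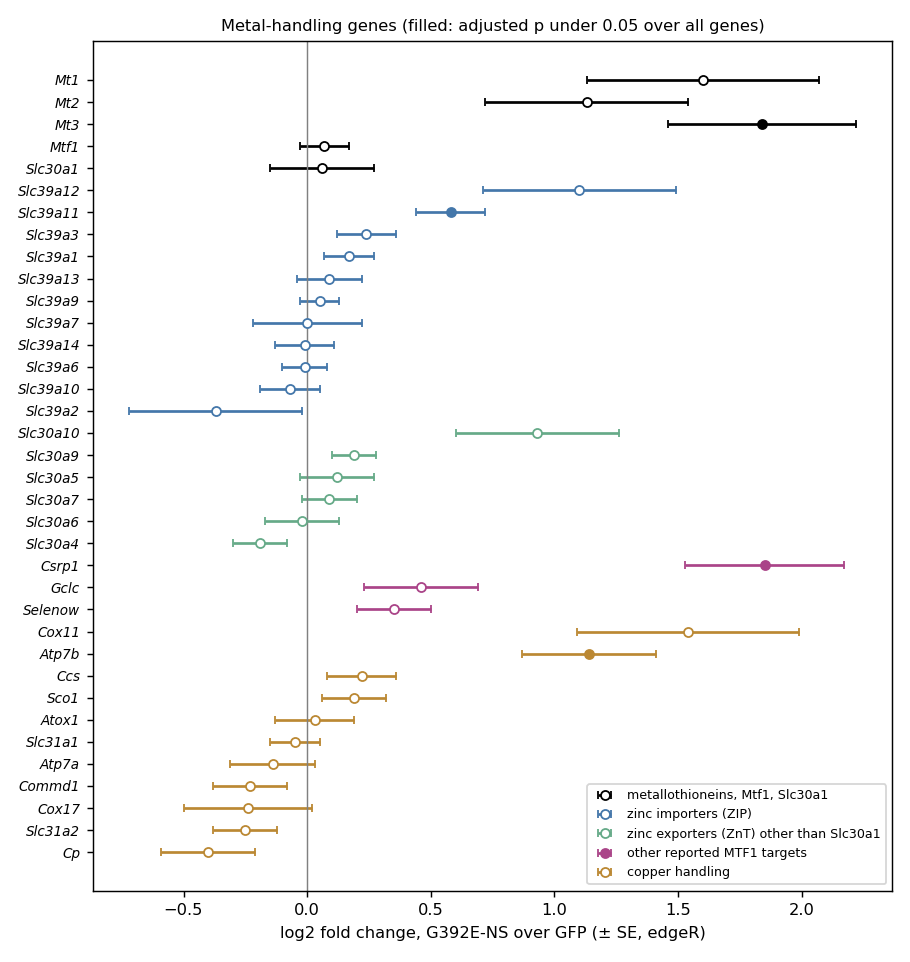
Log2 fold change of G392E-NS over GFP with its SE for the metallothionein genes, Mtf1, Slc30a1 and the tested zinc transporters, other reported MTF1 targets and copper handling genes, each gene shown once. Filled points passed the edgeR test at an adjusted p under 0.05, a description only for the metallothionein genes, which were chosen on this comparison. Slc30a1 and Mtf1 lie near 0 (0.06 and 0.07).

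Genes of the other signals known to raise Mt1 and Mt2 were counted in the same fit. Of 8 genes of IL-6 and STAT3 signalling, 7 were tested and 2 rose (edgeR, background 4.79% higher). They were the oncostatin M receptor gene Osmr, by 3.23 (SE 0.47, adjusted p = 0.00748), and the transcription factor gene Cebpd, by 1.68 (SE 0.32, adjusted p = 0.0241). Even with G392E-NS they reached 3.58 ± 1.87 and 3.68 ± 1.46 CPM (SD, n = 3), and reads of Spidr, on the opposite strand, may add to Cebpd. Cebpd lost its call without any 1 GFP library (adjusted p = 0.0627 to 0.111). The RNA of Stat3 had 0.04 (SE 0.15, adjusted p = 0.911), which does not measure the activity of its protein. In the whole list 6 of the 7 genes tested had a fold change above 0, against 49.3% of all genes. The median of the list was 0.46 on the log2 scale. The part of STAT3 signalling in the metallothionein values was not tested.

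Of 8 glucocorticoid-induced genes, 2 rose (edgeR, background 4.79% higher). They were the transcription factor gene Klf9, by 0.76 (SE 0.18, adjusted p = 0.0454), and Nfkbia, whose product holds NF-kappaB in the cytoplasm, by 0.45 (adjusted p = 0.0494, SE 0.11). Klf9 lost its call without any 1 library other than GFP replicate 3 (adjusted p = 0.0598 to 0.113) and Nfkbia without any 1 of the 6 (0.0529 to 0.232). Among those that did not pass, Fkbp5 had 0.15 (SE 0.14, adjusted p = 0.553) and Per1 −0.02 (SE 0.12, adjusted p = 0.937). Tsc22d3 had 0.45 (SE 0.17, adjusted p = 0.165), with groups that did not overlap, beside 28.6% of all genes. In the whole list 6 of 8 genes had a fold change above 0, against 49.3% of all genes, with a median of 0.14 on the log2 scale. The part of glucocorticoids in the metallothionein values was not tested.

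Of 10 hypoxia-induced genes, 8 were tested and 1 rose (edgeR, background 4.79% higher). It was the pyruvate dehydrogenase kinase gene Pdk1, by 0.73 (SE 0.15, adjusted p = 0.0283). This call was lost without any 1 library other than G392E-NS replicate 1 (adjusted p = 0.069 to 0.127). Of 8 core targets of NRF2, the transcription factor that answers oxidants, none passed by edgeR (4 at an unadjusted p under 0.05, 1 by DESeq2 and none by limma-voom), although all 8 had a fold change above 0 with a median of 0.59. Over all genes tested 49.3% had a fold change above 0. The nearest was the cystine transporter gene Slc7a11, with 1.38 (SE 0.47, adjusted p = 0.134), which passed without G392E-NS replicate 1 (1.71, adjusted p = 0.0395) and had 0.60 without G392E-NS replicate 2 (adjusted p = 0.291). Without G392E-NS replicate 2, which also had the most Mt1, Mt2 and Mt3, 5 of the 8 NRF2 targets had a fold change above 0, with a median of 0.20.

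Neighbouring genes on chromosome 8 were examined within 500 kb of Mt3. Of 10 tested besides the metallothionein genes, 1 rose and none fell (edgeR, background 4.79% higher and 1.36% lower), with a median log2 fold change of 0.15. It was Cpne2, whose start lies 380383 bases from that of Mt3, by 1.12 (SE 0.26, adjusted p = 0.0432), a call lost without any 1 library other than G392E-NS replicate 1 (adjusted p = 0.0565 to 0.145). The nearest tested gene on the Mt1 side, Nup93, had 0.12 (SE 0.12, adjusted p = 0.577), and the nearest beyond Mt4, Bbs2, had 0.63 (SE 0.16, adjusted p = 0.0537).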

How the data were processed

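RNA of 6 libraries was sequenced. The deposited table holds raw counts, whole numbers per Ensembl gene that the authors did not normalise, as the values show. The build GRCm38 and the tools HTSeq 0.6.1, TopHat2 2.0.12, DESeq2 1.4.5 and R 3.2.2 are listed in the submitters' processing notes, without roles. The strand setting is not given in the sources used here.

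Genes were paired with GENCODE M21 (37693 of 39179). Genes were called by edgeR 4.0.16 under R 4.3.3 (filterByExpr, TMM, quasi-likelihood F test, no covariate), with Benjamini-Hochberg adjustment over 13775 genes and a threshold of 0.05. Each SE was derived from the log2 fold change and its F value. Fits were also run on simulated counts drawn independently for each gene, without shifts shared by the genes of a library. Their outcome is not given here and does not show how the fits perform on these libraries. Replicates differed by more than sampling noise (chi-square per degree of freedom 8.02 to 56.4). The 15 alternative fits include DESeq2 1.42.0 and limma-voom (limma 3.58.1).

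The genes and lists were chosen with earlier results of these data known. Named genes are the 5 described, Mt4, up to 4 called genes a list (3 for markers) or the nearest, the 5 nearest profiles to each of Mt1, Mt2 and Mt3, and called genes within 500 kb of Mt3. Others named (Slc39a12, Slc30a3, Stat3, Fkbp5, Per1, Tsc22d3, Aqp4, Nup93, Bbs2, Serpini1, Xist, Map2, Stmn2, Nefl, Csf1r, C1qa, Cdh5, Cldn5, Dcn, Lum) were picked after their values were seen. Some genes the rule picks are not described.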

Additional observations from a re-analysis of the deposited data

How the results depend on the processing

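With each library left out in turn, log2 fold changes were 1.13 to 2.10 for Mt1, 0.82 to 1.58 for Mt2, 1.46 to 2.19 for Mt3, 0.01 to 0.12 for Mtf1 and −0.17 to 0.25 for Slc30a1. Those of Mt1, Mt2, Mt3 and Mtf1 stayed above 0 in all 15 alternatives. Of the 5 genes, 1 was called in the reported fit, 3 with no low-count filter and 0 to 2 with a library left out. The merged-exon share of Mt3 rose from 24.5 to 35.9% (longest transcript) or 28.2% (APPRIS) with G392E-NS, and from 19.0 to 28.9 or 23.0% with GFP. Both lengths gave Mt3 628 and 175 RPKM and Mtf1 6.08 and 5.79 RPKM with G392E-NS and GFP. In the same order of groups, APPRIS gave Mt1 1002 and 330 and the longest transcript gave it 507 and 167.

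Over all genes, 4.79% were higher and 1.36% lower (660 and 187). DESeq2 gave 7.87 and 2.66% (1084 and 366), no filter 5.2 and 1.61% (1205 and 374 of 23188 genes), the 4 libraries without GFP replicate 3 and G392E-NS replicate 2 2.63 and 0.861%, and 1 library fewer 1.38 to 7.04% and 0.324 to 2.81%. Higher calls among zinc importers (1) were 0 with limma-voom or total-count scaling, 2 with no filter and 0 to 1 with a library left out. ZnT exporters (0) had 1 with DESeq2 or no filter. Other MTF1 targets (1) had 2 with either and 0 to 1 with a library left out. Copper genes (1) had 2 with either, 0 with limma-voom, total-count scaling, a 1 CPM filter or the 4 libraries, and 0 to 1 with a library left out, when 0 to 1 were lower. Glucocorticoid-induced genes (2) had 1 with RLE or upper-quartile scaling, a 1 CPM filter, limma-voom or no filter, 0 with total-count scaling or the 4 libraries, and 0 to 1 with a library left out. IL-6 and STAT3 genes (2) had 1 to 2, hypoxia genes (1) 0 to 1 (0 in the 4 libraries) and NRF2 targets (0) 0 to 2 with a library left out. NRF2 targets had 1 with DESeq2 and 2 with no filter. Kdr, an endothelial marker at −0.06, ranged from −0.42 to 0.19 with libraries left out (0.19 without G392E-NS replicate 3, 0.04 without GFP replicate 1). Where fewer samples were used the calls rest on less data; otherwise the cause was not tested.

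The replicate numbers were not taken as pairs: same-numbered libraries deviated from their group means with correlations of 0.0338, −0.383 and −0.255, and not every library correlated best with its own number. With the replicate block, 1.58% of genes were higher and 0.363% lower (217 and 50), and 0 of the 5 genes were called (log2 fold change of Mt3 1.80). The block left 0 higher calls among zinc importers, other MTF1 targets, copper, glucocorticoid-induced and hypoxia genes and 1 among IL-6 and STAT3 genes.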
